A study of Mus musculus with 24 samples.

Results

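Carotid arteries of ovariectomized mice treated with estetrol (E4) were compared with carotid arteries of ovariectomized mice that had received vehicle. The comparison used the 6 libraries titled E4 (animals C16, C19, C20, C36, C38 and C39) and the 6 titled OVX (animals C2, C3, C4, C5, C24 and C25), which are 12 of the 24 libraries in the series. The remaining libraries came from mice treated with 17β-estradiol (E2) or tamoxifen. The E2 libraries entered the statistical model to sharpen its estimate of how much animals vary. They also took part in the scaling of the counts and in the choice of genes tested. The E4 libraries have the word Placebo in their treatment label, so their group rests on the title. All mice were C57BL/6 females whose ovaries had been removed, which takes away the ovarian estrogen in both groups. The ovaries were removed at 4 weeks of age in the methods text, and a subcutaneous pellet was placed at 6 weeks for 2 weeks. The pellet held 1 mg of E4 in cholesterol, or cholesterol alone as the vehicle. The sample labels differ from that text, with an age of 9 weeks and a treatment of 3 weeks. The arteries had not been injured, and each library carries 1 number that is taken here as that of its animal, with no mention of pooling. The count column of vehicle-treated mouse C2 has an added R2 in its heading, whose meaning is not stated. The numbers fall into 2 runs, one with 4 vehicle and 3 E4 animals and a later one with 2 vehicle and 3 E4 animals. No source states that these runs are batches.

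Estetrol is an estrogen that the human fetal liver makes during pregnancy. Like estradiol it binds the estrogen receptors ERα and ERβ, which are transcription factors switched on by their ligand and which act at DNA elements of target genes and through other bound factors. The wall of the carotid artery is built from an inner endothelium, a media of contractile smooth muscle cells between elastic sheets, and an adventitia of collagen-producing fibroblasts. Sympathetic and vagal nerve tissue, the carotid body, lymphoid tissue, and white and brown fat lie close to this artery in the neck.

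Total counts ranged from 38462554 to 64221401 in the vehicle-treated mice and from 24647246 to 44224858 in the E4-treated mice, with the lowest in E4-treated mouse C38. Expression is given as CPM, which are counts scaled to a common library total and adjusted by edgeR's TMM method, and a range beside a median runs from the lowest to the highest of the 6 animals. The tissue label was checked against markers of its cells. Acta2, the actin of smooth muscle, was at 897 to 1926 CPM with vehicle (median 1209) and 1255 to 2167 CPM with E4 (median 1476), and Myh11, the smooth muscle myosin, was at 611 to 1145 CPM with vehicle (median 840) and 814 to 1349 CPM with E4 (median 942). Neither passed the test, nor did the endothelial adhesion genes Pecam1 and Cdh5 or the fibroblast receptor gene Pdgfra, all of which were above 50 CPM in all 12 animals. Other tissues were also represented. Counts of hemoglobin genes were high in vehicle-treated mouse C3, and counts of sympathetic neuron genes were nearly absent from vehicle-treated mouse C5. For most gene lists whose counts moved by more than 1.5 times without either of these 2 animals, the counts without it are given beside the result.

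Of 24646 genes tested, 619 (2.51%) were regulated by E4 at thresholds of an adjusted p below 0.05 and a log2 fold change above 1 or below -1 (quasi-likelihood test of edgeR, p-values adjusted by Benjamini-Hochberg). Expression was higher with E4 in 218 genes (0.885%) and lower in 401 (1.63%). Without the fold-change threshold, 5341 genes (21.7%) passed, 2379 (9.65%) of them higher and 2962 (12%) lower. In the following, a gene is said to rise or fall only where its adjusted p was below 0.05. In 2335 genes (9.47%) the CPM of all E4-treated animals lay above, or all below, the whole range of the vehicle-treated animals, among them 129 of the 218 and 185 of the 401. Without vehicle-treated mouse C3 there were 391 regulated genes, 140 higher and 251 lower, and without vehicle-treated mouse C5 there were 511, 204 higher and 307 lower. Between E4-treated and E2-treated mice, 557 genes (2.26%) passed both thresholds. This contrast shares the 6 E4-treated mice with the comparison against vehicle, and it is used below only to give the level under E2 beside that under E4.

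**Figure D1:**
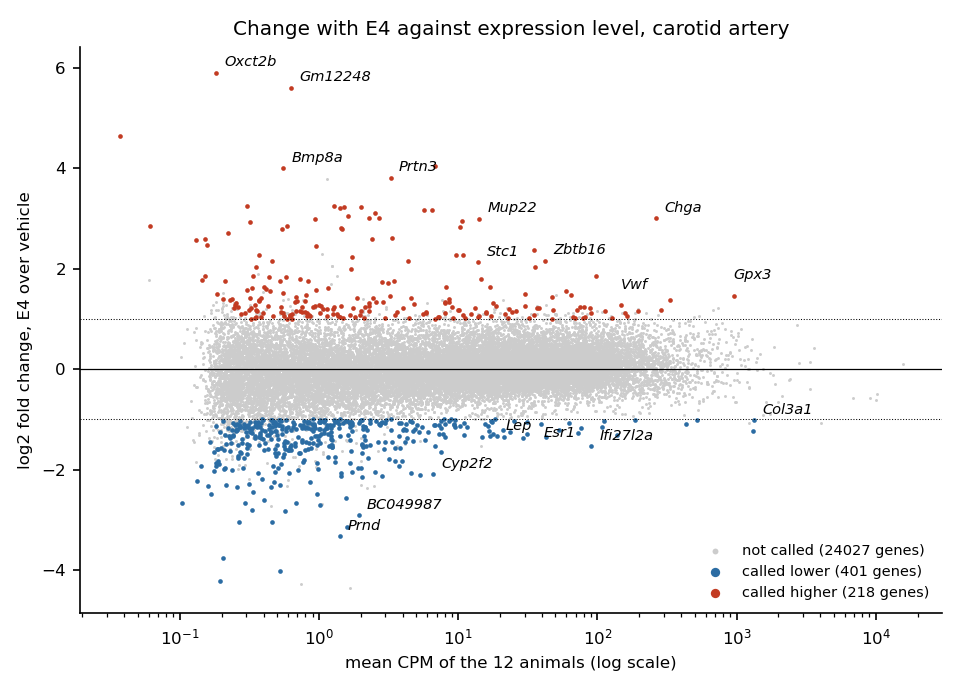
Log2 fold change with E4 over vehicle (y axis) against the mean CPM of the 12 animals (x axis, log scale) for the 24646 genes tested, with 218 genes called higher in red and 401 called lower in blue. Dotted lines mark log2 fold changes of 1 and -1, and most of the called genes lie below 10 CPM.

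Changes of more than 2-fold were concentrated in genes of low expression. Of the 5137 genes with a mean of 0.1 to 1 CPM, 84 (1.64%) were called higher and 219 (4.26%) lower. Of the 10505 genes between 10 and 100 CPM, 49 (0.466%) were called higher and 28 (0.267%) lower. The excess of lower over higher calls was therefore present below 10 CPM and not above it. The median level was 1.74 CPM for genes called higher and 0.879 CPM for genes called lower, against 10.9 CPM over all tested genes. The genes called lower also differed in kind. Long noncoding and unreviewed transcripts made up 16.1% of the genes tested and 32.9% of those called lower, with 132 genes, but 18.3% of those called higher, with 40 genes. Protein-coding genes made up 65.5% of the genes tested, 51.9% of those called lower and 72.0% of those called higher. The noncoding and unreviewed transcripts had a median of 0.969 CPM and protein-coding genes one of 22.1 CPM. These shares were not compared among genes of like level.

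**Figure D2:**
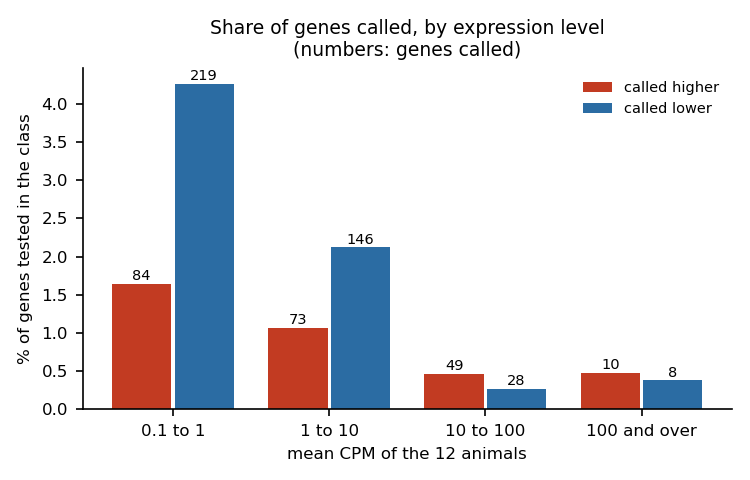
Percentage of the tested genes called higher (red) or lower (blue) with E4 in 4 classes of mean CPM, with the number of genes above each bar. Lower calls outnumber higher calls below 10 CPM (219 against 84, and 146 against 73), and higher calls outnumber lower calls above it.

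Among the gene lists examined, the major urinary protein genes had the highest median fold change. These genes lie in a cluster on mouse chromosome 4, and encode small lipocalins that are made mainly by the liver, bind pheromones and are excreted in urine. Of 18 family members tested, 17 rose, 17 of them past both thresholds, and 0 fell, with a median log2 fold change of 3.00 against -0.01 over all genes. Their summed level was 5.87 to 21.7 CPM (median 15.6) with vehicle and 52 to 199 CPM (median 102) with E4. Every E4-treated mouse was above every vehicle-treated mouse, and the highest sum was in E4-treated mouse C16. Among the 17, log2 fold changes ranged from 2.57 in Mup21 to 3.25 in Mup12, and the 2 groups of animals did not overlap in 16. The pseudogene Mup-ps22 also rose, from a median of 1.41 CPM (0.6 to 2) to 10.8 CPM (4.49 to 23.9). Mup3 did not pass the test, with a log2 fold change of 0.002 and 5 to 15 reads per animal.

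Mup10 (ENSMUSG00000078680) may stand for the group. Its level was 0.431 to 1.84 CPM with vehicle (median 1.31) and 5.22 to 20.6 CPM with E4 (median 9.01), a log2 fold change of 3.16 (SE 0.42, adjusted p = 0.000412). All E4-treated animals lay above all vehicle-treated animals. Mup22 was at 1.33 to 4.7 CPM with vehicle (median 3.64) and 12.1 to 45.5 CPM with E4 (median 24), with a log2 fold change of 3.00 (SE 0.40, adjusted p = 0.000422). The levels with E4 were below those with E2. The median of Mup10 was 47.3 CPM in E2-treated mice, a log2 fold change of E4 over E2 of -2.25 (adjusted p = 0.00163). In this direct contrast 16 of the 17 genes passed both thresholds with lower expression under E4, and Mup21 did not. The family members are near-identical copies, so how reads were divided among them is uncertain, and the sum is better measured than each gene. Pseudogenes included, all 225 values of the family above 0 were whole numbers to within 0.001.

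The sequences before the transcription start sites show how alike these copies are and how the one that did not pass the test compares with them. The stretches shown run from 250 bases before to 50 bases after the start in RefSeq's annotation of GRCm38.p6, on the minus strand, and capitals mark the letters TATATAA, the TATA box form found in this family. Mup10 and Mup2 rose with E4 and Mup3 did not pass the test.
Mup10, chr4:60582106-60582405: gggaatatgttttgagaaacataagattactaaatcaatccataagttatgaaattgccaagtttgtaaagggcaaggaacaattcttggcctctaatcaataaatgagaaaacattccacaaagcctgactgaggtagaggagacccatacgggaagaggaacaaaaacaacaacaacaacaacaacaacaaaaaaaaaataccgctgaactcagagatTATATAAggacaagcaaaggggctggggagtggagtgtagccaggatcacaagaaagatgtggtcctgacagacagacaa
Mup2, chr4:60139807-60140106: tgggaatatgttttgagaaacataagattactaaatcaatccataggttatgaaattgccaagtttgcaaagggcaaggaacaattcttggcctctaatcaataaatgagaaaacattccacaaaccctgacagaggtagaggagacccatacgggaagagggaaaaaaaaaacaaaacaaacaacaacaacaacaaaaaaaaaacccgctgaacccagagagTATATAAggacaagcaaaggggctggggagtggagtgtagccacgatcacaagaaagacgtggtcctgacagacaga
Mup3, chr4:62087268-62087567: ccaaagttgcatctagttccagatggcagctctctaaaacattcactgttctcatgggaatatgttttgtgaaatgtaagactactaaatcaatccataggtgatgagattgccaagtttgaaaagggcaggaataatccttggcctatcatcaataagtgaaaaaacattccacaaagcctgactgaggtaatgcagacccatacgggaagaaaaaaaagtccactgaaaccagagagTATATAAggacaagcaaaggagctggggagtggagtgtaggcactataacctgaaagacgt
Of the 17 genes that rose, 11 have a promoter in the RefSeq table used. The other 10 were 87.4% to 97.0% identical to Mup10 (median 95.8%) over the aligned bases, and Mup3 was 89.0% identical over 245 aligned bases. TATATAA was found in 10 of the 11, starting between 31 bases before and 12 bases after the annotated start, and it was also present in Mup3. On either strand, 283 of the promoters of 13736 tested genes (2.06%) hold these letters. A search for the estrogen response element, the arms GGTCA and TGACC with 3 bases between them, found an exact match in 2 of the 13736 promoters (0.0146%), in 0 of 124 promoters of genes called higher and in 0 of 186 of genes called lower. With up to 1 mismatch it was found in 119 promoters (0.866%), in 0 of the 124 and in 2 of the 186 (1.08%). These windows cover 300 bases around a start site, and no match in them says nothing about binding elsewhere.

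A second group of neighbouring genes on chromosome 4 rose with E4. Bmp8b and Bmp8a encode bone morphogenetic proteins of the TGF-β superfamily, and BMP8B is best known as a factor made by brown fat. Bmp8b (chromosome 4, 123105165 to 123132099 in GRCm38) was at 1.19 to 1.94 CPM with vehicle (median 1.62) and 3.24 to 6.77 CPM with E4 (median 5.25), with a log2 fold change of 1.76 (SE 0.18, adjusted p = 3.81e-05). Bmp8a (chromosome 4, 123312645 to 123343252) was at 0 to 0.153 CPM with vehicle (median 0.0579) and 0.486 to 1.54 CPM with E4 (median 1.05), with a log2 fold change of 3.99 (SE 0.40, adjusted p = 3.81e-05). Neither gene overlapped between the groups. Inside the span of Bmp8b, Oxct2b, which encodes a testis form of a ketone-body enzyme, had 1 read in a single vehicle-treated mouse and 0 in the others, against 5 to 28 reads in each E4-treated mouse (adjusted p = 8.07e-05). Too few of the E4-treated and vehicle-treated mice reached edgeR's expression filter for Oxct2b, so it was tested only through the E2 libraries. The unreviewed transcript Gm17244, which overlaps Oxct2b, was at 0 to 0.17 CPM with vehicle (median 0.0626) and 0.274 to 0.851 CPM with E4 (median 0.542). Ppie, at the end of Bmp8b, and Pabpc4, between the Bmp8 genes, did not pass the test, with log2 fold changes of -0.27 and 0.18. Macf1, beyond Bmp8a, fell by 0.38 on the log2 scale. Bmp8b exons overlap other genes, and the strand setting of the counting is not stated, so reads of these overlapping transcripts cannot be told apart.

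Prtn3, which encodes the neutrophil serine protease proteinase 3, rose from a median of 0.498 CPM (0.11 to 0.573) to 5.33 CPM (3.21 to 10.4) with no E4-treated animal inside the vehicle range, a log2 fold change of 3.81 (SE 0.30, adjusted p = 1.76e-06). Elane, a neutrophil protease gene directly downstream, was at 0.241 to 1.21 CPM with vehicle (median 0.376) and 0.494 to 1.05 CPM with E4 (median 0.864) and did not pass the test (log2 fold change 0.75), but it rose without vehicle-treated mouse C5, with a log2 fold change of 1.22. Of 13 neutrophil genes tested, 1 rose, Prtn3 itself, and 0 fell, and their median log2 fold change was -0.29. Without C5, which had the highest neutrophil sum (45 CPM, against 9.67 to 24.2 CPM in the other vehicle-treated mice), 2 of the 13 rose. Plppr3, whose exons overlap Prtn3 on the opposite strand, also rose, with a log2 fold change of 1.25 (SE 0.16, adjusted p = 0.000412). Gm12248, a gene without an assigned function on chromosome 11, had at most 2 reads in any vehicle-treated mouse and 28 to 83 reads in each E4-treated mouse, at 0.913 to 2.02 CPM. It had the smallest p-value of all genes (adjusted p = 7.59e-09).

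Prnd had the lowest fold change among genes whose groups did not overlap above a mean of 1 CPM. It encodes doppel, a relative of the prion protein that is found mainly in testis and in developing endothelium. Its level was 1.96 to 3.69 CPM with vehicle (median 2.34) and 0.162 to 0.277 CPM with E4 (median 0.266), with a log2 fold change of -3.33 (SE 0.20, adjusted p = 1.88e-08). The highest E4 value lay far below the lowest vehicle value. Prn, a readthrough gene that shares its exons, had a log2 fold change of -0.31, and the prion protein gene Prnp upstream one of 0.24, neither past the test. BC049987, a long noncoding RNA, fell from a median of 3.15 CPM (2.15 to 5.4) to 0.324 CPM (0.187 to 1.07), a log2 fold change of -2.90 (SE 0.39, adjusted p = 0.000422). 2010003K11Rik, a gene without an assigned function, fell from a median of 7.29 CPM (5.79 to 13.2) to 2.13 CPM (1.31 to 2.47). Cyp2f2, a cytochrome P450 known from airway and liver, fell from a median of 11.1 CPM (7.1 to 13.2) to 2.31 CPM (1.22 to 4.45), and its median with E2 was lower still, at 0.725 CPM. The remaining genes named for the lowest fold changes were the acetyltransferase-family gene Nat8f3 (-2.04), the annexin gene Anxa8 (-1.82) and the transcripts AC134468.1, Gm28119, Gm48630 and Gm43197 (-2.07 to -1.85). Their groups did not overlap either.

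**Figure D3:**
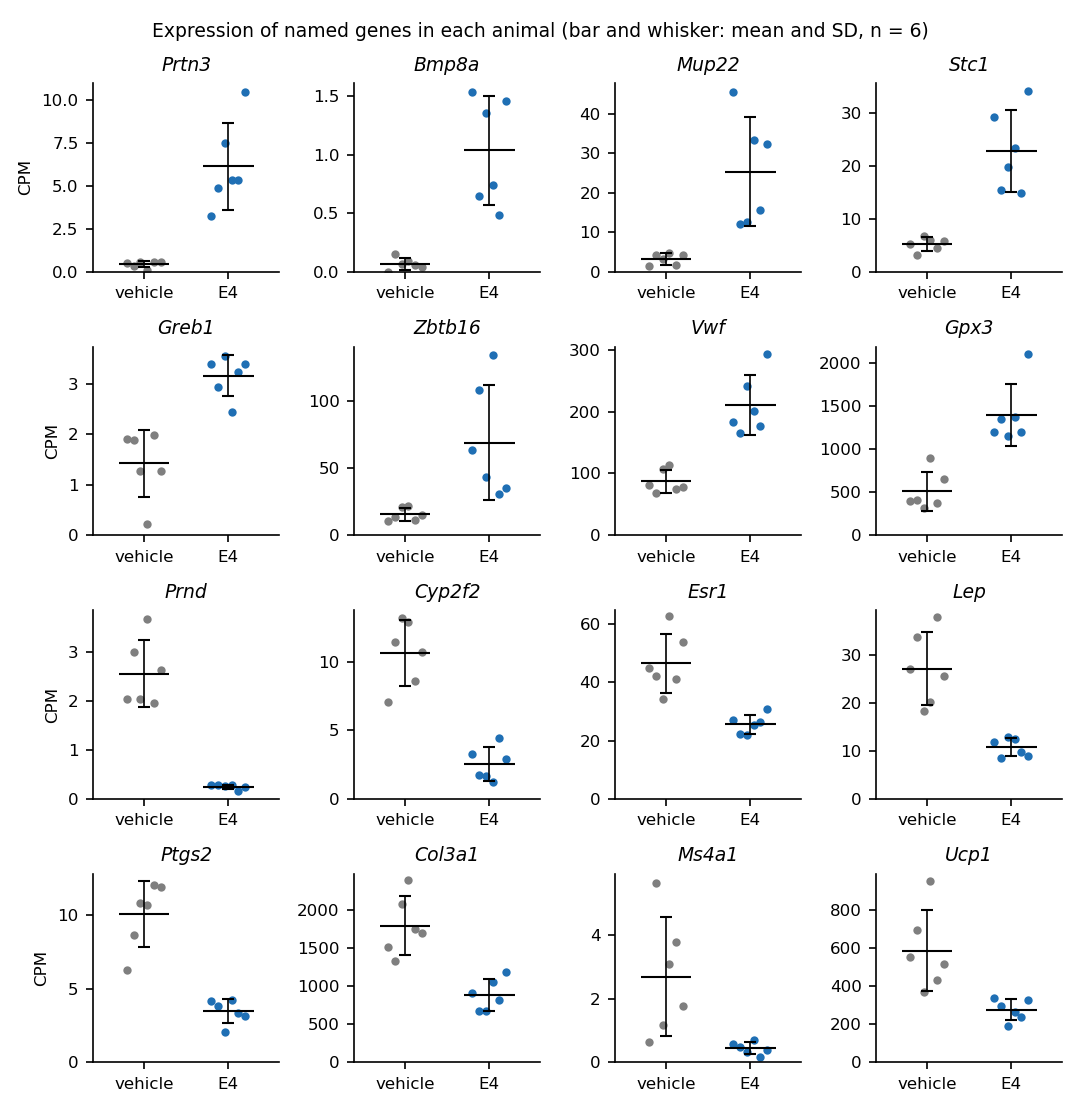
CPM of 16 named genes in each of the 6 vehicle-treated (grey) and 6 E4-treated (blue) mice, on linear axes that start at 0, with the mean and SD of each group. Prtn3, Bmp8a, Mup22, Stc1, Greb1, Zbtb16, Vwf and Gpx3 are higher with E4 and the other 8 genes are lower, and the spread of Zbtb16 with E4 is wide, from 30.3 to 134 CPM.

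Estrogen receptors and the cofactors through which they act were examined next. Of 16 such genes tested, 4 rose and 1 fell (31.2% past the test, against 21.7% of all genes), with a median log2 fold change of 0.20. The gene that fell was Esr1 (ENSMUSG00000019768, chromosome 10, 4611593 to 5005614 in GRCm38), which encodes ERα. It was at 34.3 to 62.7 CPM with vehicle (median 43.6) and 22 to 30.7 CPM with E4 (median 25.8), with a log2 fold change of -0.86 (SE 0.13, adjusted p = 0.00104), and all E4-treated mice were below all vehicle-treated mice. In E2-treated mice its median lay in between, at 36.7 CPM (log2 fold change of E4 over E2 -0.49, adjusted p = 0.0292). Esr2, which encodes ERβ, was not tested, with 0 to 6 reads in vehicle-treated and 0 to 10 reads in E4-treated mice. Gper1, the gene of a membrane receptor that responds to estrogen, was at 0.768 to 3.7 CPM with vehicle (median 2.83) and 1.63 to 3.75 CPM with E4 (median 2.98) and did not pass the test (log2 fold change 0.20, adjusted p = 0.708). Among the cofactors Pelp1, a scaffold for estrogen receptor signaling, rose with a log2 fold change of 0.50 (SE 0.11, adjusted p = 0.00501), the corepressor Nrip1 with 0.38 and the coactivator Ncoa1 with 0.31. The groups did not overlap in any of these 3 cofactors.

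Of 44 estrogen-responsive genes tested, 11 rose and 1 fell (27.3%, against 21.7% of all genes), with a median log2 fold change of 0.25. Without vehicle-treated mouse C5 the median was 0.15, with 10 genes higher and 1 lower. Stc1, which encodes the secreted glycoprotein stanniocalcin 1, had the largest change, from a median of 5.48 CPM (3.04 to 6.72) to 21.5 CPM (14.7 to 34), a log2 fold change of 2.13 (SE 0.23, adjusted p = 5.38e-05). Its antisense transcript Gm41192 rose as well (2.15). With E2 the median of Stc1 was 73.5 CPM, so that E4 over E2 gave a log2 fold change of -1.75 (adjusted p = 0.000279). Greb1, a cofactor of ERα and a classical target of it, was at 0.22 to 1.98 CPM with vehicle (median 1.58) and 2.44 to 3.56 CPM with E4 (median 3.32), with a log2 fold change of 1.15 (SE 0.30, adjusted p = 0.0132). The lowest vehicle value, 0.22 CPM, was that of mouse C5. Greb1 was also lower than under E2, where its median was 7.12 CPM (E4 over E2 -1.26, adjusted p = 0.0118). Myc, a transcription factor that drives growth, rose from a median of 8.4 CPM (7.21 to 10.8) to 15.2 CPM (13.1 to 18.2) without overlap. Rerg, a small GTPase named for its estrogen regulation, had a log2 fold change of 0.90 (SE 0.23, adjusted p = 0.0138). Pgr, the progesterone receptor gene and a standard readout of estrogen action, was at 2.9 to 5.18 CPM with vehicle (median 3.86) and 4.45 to 5.51 CPM with E4 (median 4.92). Its log2 fold change of 0.29 did not pass the test (adjusted p = 0.16), whereas its level was below that under E2 (median 8.32 CPM, E4 over E2 -0.83, adjusted p = 0.00221).

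Genes that glucocorticoids induce in many tissues formed a list with a high share past the test. Of 19 tested, 7 rose (Ddit4, Fkbp5, Hif3a, Klf9, Mt1, Mt2 and Zbtb16) and 1 fell (Dusp1), which is 42.1% against 21.7% of all genes, and the median log2 fold change was 0.45. It was 0.53 without vehicle-treated mouse C5 and 0.39 without C3. Zbtb16, which encodes the zinc-finger protein PLZF, was at 10.7 to 21.3 CPM with vehicle (median 14.3) and 30.3 to 134 CPM with E4 (median 53.2), with a log2 fold change of 2.16 (SE 0.32, adjusted p = 0.000875). Its median with E2 was 15.8 CPM, and E4 over E2 gave a log2 fold change of 1.98 (adjusted p = 0.00135). Fkbp5, a chaperone that binds steroid receptors, rose from a median of 24.1 CPM (12.8 to 27.9) to 53.5 CPM (32.8 to 69.9), a log2 fold change of 1.22 (SE 0.19, adjusted p = 0.00107) and of 0.84 (adjusted p = 0.0108) over E2. The metal-binding gene Mt2 rose by 1.05 (SE 0.19, adjusted p = 0.0024). Dusp1, a phosphatase of MAP kinases that glucocorticoids induce, moved the other way, from a median of 150 CPM (109.5 to 192) to 61.4 CPM (45.7 to 101). Hsd11b1, whose enzyme regenerates active glucocorticoid within cells, rose with a log2 fold change of 0.68 (SE 0.16, adjusted p = 0.00741).

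The endothelium was followed through 16 marker genes. 1 rose and 4 fell (31.2%), with a median log2 fold change of -0.24, or -0.15 without vehicle-treated mouse C5. It was -0.36 and -0.04 within the first and second run of animal numbers, and the summed levels overlapped, at 919 to 1510 CPM with vehicle and 995 to 1450 CPM with E4. Vwf, the gene of von Willebrand factor, rose from a median of 79.7 CPM (69 to 113) to 192 CPM (166 to 294), a log2 fold change of 1.27 (SE 0.16, adjusted p = 0.000305). All E4-treated mice lay above all vehicle-treated mice, and the median with E2 was 188 CPM. Egfl7, a matrix protein secreted by endothelial cells, fell from a median of 96.5 CPM (78.5 to 135) to 65.2 CPM (54.9 to 76.3). The surface sialomucin gene Emcn fell by 0.61 on the log2 scale. Nos3, the endothelial nitric oxide synthase, was at 22.6 to 45.3 CPM with vehicle (median 32.1) and 19.9 to 28.4 CPM with E4 (median 21.8), a log2 fold change of -0.49 (SE 0.14, adjusted p = 0.0213), with overlapping groups. Because whole arteries were sequenced, fewer cells of a type and less RNA per cell cannot be told apart, here and in all results that follow.

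Genes that set vessel tone and growth are given list by list, against the 21.7% past the test among all genes. Of 14 genes of the endothelin and renin-angiotensin systems, 2 rose and 2 fell (28.6%), or 1 and 1 without vehicle-treated mouse C3. The angiotensinogen gene Agt rose from a median of 0.568 CPM (0.198 to 0.843) to 1.47 CPM (0.576 to 1.69), and Edn1, the gene of the vasoconstrictor endothelin 1, fell from a median of 24.3 CPM (15.5 to 34.3) to 14.1 CPM (10.3 to 21.2). Adra1a, which encodes an adrenergic receptor that contracts smooth muscle, was the 1 of 9 adrenergic receptor genes past the test (11.1%), with 2 past it without vehicle-treated mouse C5. It was at 8.71 to 29.6 CPM with vehicle (median 13.2) and 28.1 to 45.8 CPM with E4 (median 29.3), a log2 fold change of 1.14 (SE 0.24, adjusted p = 0.00486). Of 19 VEGF and angiopoietin genes, 2 rose and 4 fell (31.6%). Apln, the ligand apelin, fell from a median of 5.52 CPM (5.15 to 10) to 2.84 CPM (1.92 to 3.57), and Nrp2, a coreceptor for VEGF, rose with a log2 fold change of 0.56 (SE 0.15, adjusted p = 0.0149). Without vehicle-treated mouse C5, 1 gene of the list fell, and Vegfa and Angpt1 did not pass, and without C3 1 rose and 2 fell. Of 28 smooth muscle ion channel genes, 2 rose and 2 fell (14.3%), or 0 and 2 without vehicle-treated mouse C3, with the T-type calcium channel gene Cacna1g at 7.76 to 18.6 CPM with vehicle (median 12.3) and 4.5 to 8.99 CPM with E4 (median 5.33) and a log2 fold change of -1.09 (SE 0.21, adjusted p = 0.00351). The 16 contractile genes of smooth muscle had a median log2 fold change of -0.01, with 0 higher and 2 lower (12.5%), Tagln and Smtn, neither of which passed without C5 or without C3.

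More prostanoid and leukotriene genes fell than rose, where 12% of all genes fell and 9.65% rose. Of 25 tested, 2 rose and 7 fell (36%), and the median log2 fold change was -0.18. Ptgs2, the inducible cyclooxygenase that starts prostaglandin synthesis, fell from a median of 10.8 CPM (6.26 to 12) to 3.59 CPM (2.06 to 4.24), a log2 fold change of -1.54 (SE 0.27, adjusted p = 0.00182). Alox15, a lipoxygenase of macrophages and eosinophils, fell from a median of 1.51 CPM (1.12 to 2.33) to 0.245 CPM (0.121 to 0.599), a log2 fold change of -2.49 (SE 0.53, adjusted p = 0.00507). The prostaglandin E2 receptor gene Ptger3 was at 69.4 to 95 CPM with vehicle (median 85.3) and 32.2 to 54.6 CPM with E4 (median 49.8), a log2 fold change of -0.83 (SE 0.14, adjusted p = 0.00165). In all 3 genes every E4-treated mouse lay below every vehicle-treated mouse. Without vehicle-treated mouse C5, 0 genes of this list rose and 6 fell, as without C3, and the median was -0.09. It was -0.28 and -0.04 within the first and second run of animal numbers, and with the sympathetic neuron list mean as a covariate the median was 0.01.

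Matrix genes fell in larger numbers than they rose. Of all genes tested, 9.65% rose and 12% fell (21.7% past the test). Of 30 collagen genes, 0 rose and 9 fell (30.0%), with a median log2 fold change of -0.06, and without vehicle-treated mouse C5 2 rose and 8 fell. Col3a1, a fibrillar collagen of vessel walls, fell from a median of 1728 CPM (1339 to 2394) to 864 CPM (675 to 1186), a log2 fold change of -1.02 (SE 0.17, adjusted p = 0.00139), and its groups did not overlap. Exons of Col3a1 overlap another annotated gene on the same or the opposite strand, as do those of Greb1, Stc1 and Prtn3. The strand setting of the counting is not stated, so reads in these overlaps cannot be told apart. Col6a6, a chain of the microfibrillar collagen VI, fell from a median of 31 CPM (22.1 to 40.1) to 12.1 CPM (8.22 to 15.5). The basement membrane chain Col4a3 had a log2 fold change of -0.90 (SE 0.17, adjusted p = 0.0031). Of 26 matrix glycoprotein and proteoglycan genes, 2 rose and 10 fell (46.2%), with a median of -0.18. Postn, which encodes the fibroblast protein periostin, fell from a median of 716 CPM (462 to 876) to 322 CPM (311 to 413), a log2 fold change of -1.02 (SE 0.16, adjusted p = 0.00102). Comp, a cartilage and tendon matrix protein, fell by 0.95 on the log2 scale. Cilp, a secreted matrix protein that binds TGF-β, went the other way, from a median of 43.8 CPM (28.2 to 61.1) to 94.9 CPM (65.5 to 159), a log2 fold change of 1.17 (SE 0.20, adjusted p = 0.00163).

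Elastic fiber genes, whose products give the artery its recoil, held 1 gene that rose and 5 that fell among 21 (28.6%), with a median log2 fold change of -0.21. Without vehicle-treated mouse C5, 2 rose and 2 fell, with a median of -0.12. The median was -0.39 within the first run of animal numbers and -0.01 within the second. Fbln2, an elastin-binding fibulin, rose with a log2 fold change of 0.58 (SE 0.15, adjusted p = 0.0135), and Mfap5, a glycoprotein of microfibrils, fell with one of -0.76 (SE 0.16, adjusted p = 0.00453). The elastin gene Eln was at 754 to 1630 CPM with vehicle (median 1221) and 499 to 1091 CPM with E4 (median 712), with a log2 fold change of -0.65 (SE 0.20, adjusted p = 0.0256). Leaving out vehicle-treated mouse C4 (-0.55) or any of the E4-treated mice C16, C19 and C20 (-0.61 to -0.56) raised its adjusted p above 0.05. Of 16 genes of adventitial fibroblasts, 0 rose and 8 fell (50%), with a median of -0.56. That median was -0.80 within the first run of animal numbers and -0.25 within the second, and it was -0.39 without vehicle-treated mouse C5, whose sum for this list, 12000 CPM, was the highest. Their summed levels overlapped between groups, at 7020 to 12000 CPM with vehicle and 5920 to 9600 CPM with E4. The collagen gene Col14a1 (-0.69) and the ferritin receptor gene Scara5 (-0.68) were among the 8.

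**Figure D4:**
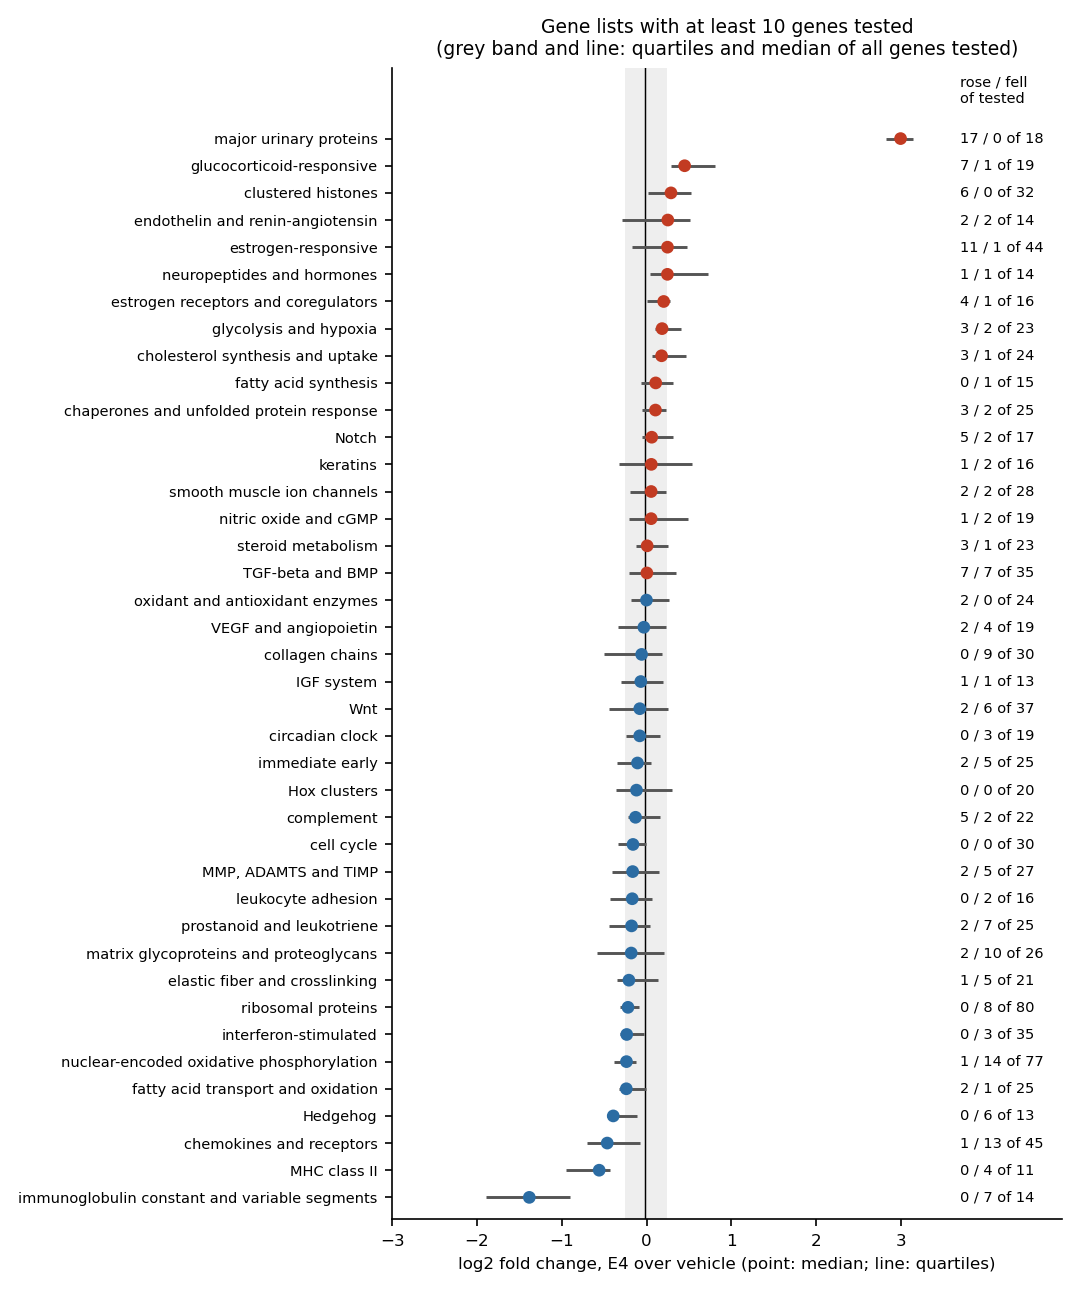
Median log2 fold change with E4 over vehicle (point) and quartiles (line) of each gene list with at least 10 genes tested, with the numbers of genes that rose and fell at the right. The grey band gives the quartiles of all 24646 genes, -0.26 to 0.24, and the major urinary proteins lie far outside it at 3.00.

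Signaling families with defined ligands, receptors and antagonists were examined member by member. Of 35 TGF-β and BMP genes, 7 rose and 7 fell (40.0%), with a median log2 fold change of 0.00. Besides the Bmp8 genes, Nog rose, the gene of the secreted BMP antagonist noggin. It was at 0.0878 to 0.636 CPM with vehicle (median 0.396) and 0.415 to 1.78 CPM with E4 (median 0.906), a log2 fold change of 1.33 (SE 0.37, adjusted p = 0.0197), with overlapping groups. The ligand genes Inhba, Inhbb and Bmp4, the receptor gene Bmpr1a and the antagonist genes Chrd and Chrdl1 were among those that fell. Of 13 genes of the IGF system, 1 rose and 1 fell (15.4%). The one that fell, Igfbp3, which encodes the main IGF carrier in plasma, went from a median of 31.8 CPM (28.7 to 39.7) to 17.7 CPM (15.7 to 23.4), a log2 fold change of -0.82 (SE 0.12, adjusted p = 0.000515).

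Of 13 Hedgehog genes, 0 rose and 6 fell (46.2%), with a median log2 fold change of -0.39, or -0.26 with 3 lower without vehicle-treated mouse C5. The coreceptor gene Cdon fell from a median of 83.3 CPM (72.3 to 106) to 52.8 CPM (45 to 67.6), a log2 fold change of -0.68 (SE 0.10, adjusted p = 0.000656). The transcription factor gene Gli1, which the pathway itself induces, fell too (-0.47). In the Wnt family 2 of 37 genes rose and 6 fell (21.6%, the share of all genes being 21.7%), or 1 and 5 without vehicle-treated mouse C3. Wif1, a secreted inhibitor of Wnt ligands, had the largest change, from a median of 21.9 CPM (12.4 to 29.1) to 8.52 CPM (5.99 to 10.4), a log2 fold change of -1.35 (SE 0.23, adjusted p = 0.00177). Rspo2, a secreted enhancer of Wnt signals, rose with one of 1.05 (SE 0.28, adjusted p = 0.0142). Of 17 Notch genes, 5 rose and 2 fell (41.2%), or 2 and 2 without vehicle-treated mouse C3. The ligand gene Jag2 rose (0.61) and the ligand gene Jag1 fell from a median of 64.4 CPM (59.1 to 67.8) to 42.8 CPM (34.2 to 52.8), a log2 fold change of -0.59 (SE 0.10, adjusted p = 0.00175). The target gene Hes5 was at 0.0878 to 0.543 CPM with vehicle (median 0.313) and 0.576 to 1.78 CPM with E4 (median 1.05), a log2 fold change of 1.78 (SE 0.43, adjusted p = 0.00942). Mfng, an enzyme that adds sugars to Notch receptors, fell from a median of 21.9 CPM (18.2 to 33.8) to 10.1 CPM (7.02 to 11.2), a log2 fold change of -1.33 (SE 0.14, adjusted p = 4.69e-05), and its groups did not overlap.

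B cell genes fell with E4, and genes of lymphocytes varied widely among the vehicle-treated mice. Of 14 B cell genes, 0 rose and 13 fell (92.9%), 12 of them past both thresholds, with a median log2 fold change of -1.72. Their summed level was 10.9 to 57 CPM (median 27.3) with vehicle and 7 to 12.9 CPM (median 8.64) with E4. The lowest vehicle-treated mouse, C2, lay inside the range of the E4-treated mice, and the highest was C3. Without C3, 9 of the genes fell and the median was -1.45. Ms4a1, which encodes CD20, was at 0.637 to 5.63 CPM with vehicle (median 2.44) and 0.162 to 0.692 CPM with E4 (median 0.436), a log2 fold change of -2.57 (SE 0.46, adjusted p = 0.0022). The transcription factor gene Spib had one of -2.70. Of 14 immunoglobulin segments tested, 0 rose and 7 fell (50%), with a median of -1.38, and 4 fell without C3.

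Of 20 T cell genes, all had a log2 fold change below 0, with a median of -1.65, but 3 passed the test (15.0%, below the 21.7% of all genes). These were Cd28, Ccr7 and Cd2, and without vehicle-treated mouse C3 none of the 20 passed, with a median of -1.29. The summed T cell level was 30.8 to 110 CPM (median 47) with vehicle and 20 to 29.2 CPM (median 23.6) with E4, and these did not overlap. Erythroid genes, a measure of blood, were at 3390 to 28300 CPM in vehicle-treated mice (median 9760) and 3740 to 7460 CPM in E4-treated mice (median 5970), and 0 of 9 passed edgeR's test in either direction (2 at an unadjusted p below 0.05, both lower, and 2 with DESeq2). Of 3 genes of lymph node stroma, 0 rose and 2 fell, the chemokine genes Ccl19 (-0.81) and Ccl21a (-0.71), with sums of 10.8 to 21.4 CPM with vehicle and 7.8 to 13.3 CPM with E4, and 1 fell without C3 or without C5. Mouse C3 was the highest for the B cell, T cell and erythroid lists alike. With the B cell list mean as a covariate, 28 genes were regulated in place of 619, of which 25 were higher and 3 lower. The share of lymphoid tissue or blood in these calls was not tested.

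**Figure D5:**
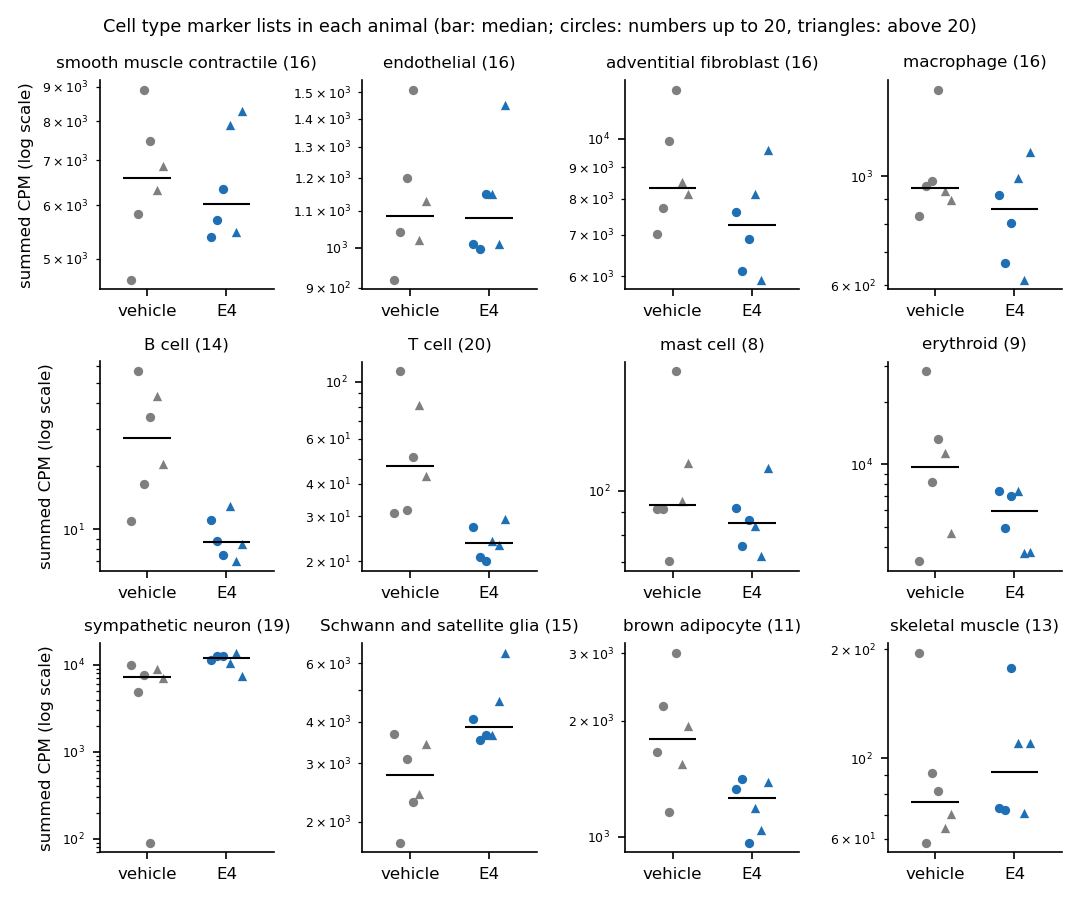
Summed CPM (log scale) of 12 cell type marker lists in each vehicle-treated (grey) and E4-treated (blue) mouse, with circles for the first run of animal numbers, triangles for the second and a bar for the median. The T cell sums are lower with E4 without overlap, and the B cell sums are lower except that vehicle-treated mouse C2 lies inside the E4 range. Erythroid sums reach 28300 in vehicle-treated mouse C3, and the sympathetic neuron sum is 89.4 in vehicle-treated mouse C5.

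Among chemokines and other genes of immune cells, more fell than rose. Of 45 chemokine and chemokine receptor genes, 1 rose (Cx3cl1) and 13 fell (31.1%, against 21.7% of all genes), with a median log2 fold change of -0.46, and 8 fell without vehicle-treated mouse C3. Among the 13, Cxcr5, Ccr7, Ccl19 and Ccl21a are also in the B cell, T cell or lymph node stroma list. With the B cell list mean as a covariate the median was -0.08 and 0 of the 45 passed, where 33 of all genes did. Ccr3, the eotaxin receptor of eosinophils, fell from a median of 0.953 CPM (0.574 to 1.43) to 0.111 CPM (0.0243 to 0.302), a log2 fold change of -2.83 (SE 0.43, adjusted p = 0.0009), without overlap. Cxcl10, an interferon-induced chemokine, was at 3.02 to 6.26 CPM with vehicle (median 4.62) and 2.26 to 6.46 CPM with E4 (median 4.92) and did not pass the test (log2 fold change 0.01, adjusted p = 0.98). Ppbp, a chemokine of platelets, was at 0.818 to 2.72 CPM with vehicle (median 1.77) and 0.283 to 1.18 CPM with E4 (median 0.545), a log2 fold change of -1.39 (SE 0.41, adjusted p = 0.0237). It did not pass the test without E4-treated mouse C20, where its log2 fold change was -1.26, and it was -0.70 and -2.38 in the first and second run of animal numbers. Of 35 interferon-stimulated genes, 0 rose and 3 fell (8.57%), or 5 without vehicle-treated mouse C5. One of the 3 was Ifi27l2a, from a median of 131 CPM (94.7 to 183) to 43.8 CPM (31.8 to 65.6), a log2 fold change of -1.53 (SE 0.21, adjusted p = 0.000475).

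Of 11 MHC class II genes, 0 rose and 4 fell (36.4%), with a median of -0.56, and 2 fell without vehicle-treated mouse C5 or without C3. H2-Aa, a chain that presents peptides, was at 154 to 237 CPM with vehicle (median 175) and 77 to 165 CPM with E4 (median 98), a log2 fold change of -0.76 (SE 0.20, adjusted p = 0.0164). H2-Ob, a B cell regulator of peptide loading, had one of -1.38 (SE 0.26, adjusted p = 0.00276). Mast cell genes also fell, with 5 of 8 lower and 1, Kit, higher (75%), and 4 lower without C5. Their sums overlapped, at 70.1 to 182 CPM with vehicle (median 93.2) and 71.9 to 112 CPM with E4 (median 85), and the highest was that of C5. Among them the protease gene Mcpt4 was at 18.2 to 54 CPM with vehicle (median 24.2) and 8.19 to 17.9 CPM with E4 (median 11.9), a log2 fold change of -1.21 (SE 0.23, adjusted p = 0.00335). Complement genes differed, with 5 of 22 higher and 2 lower (31.8%), and 1 lower without C5 or C3. C3, the central complement component, rose from a median of 496 CPM (386 to 792) to 847 CPM (749.5 to 1486), a log2 fold change of 0.82 (SE 0.18, adjusted p = 0.00572), and C4b rose with one of 0.54 (SE 0.14, adjusted p = 0.0116). Macrophage genes had 0 higher and 1 lower of 16 (6.25%), that one being Mrc1, which did not pass in 6 of the 12 fits that left out 1 animal.

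Among fat genes, Lep, the gene of the adipocyte hormone leptin, fell from a median of 26.4 CPM (18.3 to 38) to 10.8 CPM (8.63 to 13), a log2 fold change of -1.33 (SE 0.21, adjusted p = 0.00117), without overlap. It was higher with E2, at a median of 39.7 CPM, and E4 over E2 gave a log2 fold change of -1.87 (adjusted p = 0.000186). Retn, which encodes the adipocyte hormone resistin, fell with one of -1.09 (SE 0.21, adjusted p = 0.00361), while Cfd, the gene of adipsin, was the 1 of 15 white adipocyte genes that rose, at 429 to 1155 CPM with vehicle (median 666) and 884 to 1590 CPM with E4 (median 1064). In total 4 of the 15 fell, with a median of -0.21, but without vehicle-treated mouse C5 2 rose and 2 fell, with a median of -0.06, and without C3 1 rose and 2 fell. Of 11 brown adipocyte genes, 0 rose and 5 fell (45.5%), with a median of -0.55 and sums of 1160 to 3010 CPM with vehicle and 965 to 1410 CPM with E4. Ucp1, the uncoupling protein that makes brown fat produce heat, was at 368 to 954 CPM with vehicle (median 535) and 194 to 339 CPM with E4 (median 281), a log2 fold change of -1.09 (SE 0.27, adjusted p = 0.0106). Cidea, a lipid droplet protein of brown fat, had one of -0.91 (SE 0.21, adjusted p = 0.0085). Without vehicle-treated mouse C3, 2 of the 11 fell, and without C5 4 fell and 1 rose. How much fat adhered to each artery was not recorded in the labels, and its part in these values was not tested.

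Genes of metabolism and stress changed in small numbers. Of 24 oxidant and antioxidant enzyme genes, 2 rose and 0 fell (8.33%). Gpx3, the secreted glutathione peroxidase, rose from a median of 404 CPM (316 to 899.6) to 1278 CPM (1150 to 2104), a log2 fold change of 1.46 (SE 0.23, adjusted p = 0.00102), and Gclc, which makes glutathione, with one of 0.70 (SE 0.12, adjusted p = 0.00146). Neither overlapped between the groups. Of 24 genes of cholesterol synthesis and uptake, 3 rose and 1 fell (16.7%), or 1 and 1 without vehicle-treated mouse C3. Srebf2, the transcription factor that drives this pathway, was at 69.5 to 141 CPM with vehicle (median 126) and 187 to 229 CPM with E4 (median 193), a log2 fold change of 0.80 (SE 0.18, adjusted p = 0.00634). Insig1, which holds that factor back, fell from a median of 262 CPM (205 to 349) to 139 CPM (126 to 165), a log2 fold change of -0.88 (SE 0.12, adjusted p = 0.000415). Of 25 genes of fatty acid transport and oxidation, 2 rose and 1 fell (12%), with a median of -0.24. Without vehicle-treated mouse C5 the median was -0.09, with 3 higher and 0 lower. The mitochondrial importer gene Cpt1a had a log2 fold change of 0.82. Of 23 glycolysis and hypoxia genes, 3 rose, among them the hexokinase gene Hk1 (1.16), and 2 fell (21.7%, as of all genes), or 1 and 0 without vehicle-treated mouse C3. Of 25 chaperone and unfolded protein response genes, 3 rose, among them Hsp90ab1 (0.72), and 2 fell, Ddit3 and Hspe1 (20%). Cyp1a1, a cytochrome P450 that oxidizes estrogens, was at 0.127 to 0.407 CPM with vehicle (median 0.202) and 0.445 to 1.48 CPM with E4 (median 0.764), a log2 fold change of 1.76 (SE 0.49, adjusted p = 0.0194) that did not pass without E4-treated mouse C36, where it was 1.5.

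Among nerve genes, the sympathetic ones were almost absent from vehicle-treated mouse C5. The summed level of 19 sympathetic neuron genes was 89.4 CPM in C5 and 4830 to 9940 CPM in the other vehicle-treated mice, against 7420 to 13900 CPM in E4-treated mice. All 19 log2 fold changes were above 0, with a median of 0.79, but 2 passed the test (10.5%). Without C5 the median was 0.53 and 6 rose. Dbh, the enzyme that makes noradrenaline, was at 0.483 to 750.4 CPM with vehicle (median 512) and 741 to 1269 CPM with E4 (median 1037) and did not pass. Gata3, a transcription factor of sympathetic neurons, rose from a median of 8.54 CPM (1.69 to 11.8) to 18.5 CPM (11.6 to 26.2), a log2 fold change of 1.22 (SE 0.33, adjusted p = 0.0168). Chga, which encodes chromogranin A of hormone-storing granules, was at 3.29 to 100.2 CPM with vehicle (median 64.8) and 80.8 to 2207 CPM with E4 (median 134), and its highest value, 2207 CPM, came from E4-treated mouse C38. Its log2 fold change was 3.01 (SE 0.84, adjusted p = 0.0193), and 1.07 and no longer past the test without C38. Of 6 thyroid and parathyroid genes tested, 1 rose, Tshr, and 0 fell (16.7%), and 0 rose without vehicle-treated mouse C3. Their sums were 14.3 to 25.5 CPM with vehicle and 24.4 to 43.5 CPM with E4, highest in C38. Pcsk1n, an inhibitor of prohormone processing, was at 0.68 to 24.6 CPM with vehicle (median 13.5) and 29.6 to 98.5 CPM with E4 (median 53.7), with the vehicle minimum of 0.68 CPM in C5. Of 15 Schwann and satellite glia genes, 1 rose, the transcription factor gene Foxd3, and 0 fell, with 2 higher without C5. Foxd3 went from a median of 7.37 CPM (3.63 to 9.16) to 14.8 CPM (10.8 to 17.4), a log2 fold change of 1.07 (SE 0.29, adjusted p = 0.0154). The summed Schwann and satellite glia level was 1730 to 3690 CPM with vehicle and 3540 to 6470 CPM with E4. The part of adhering nerve tissue in the results was not tested.

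Housekeeping functions, clock genes and genes of quick responses were examined last. Of 30 cell cycle genes, 0 rose and 0 fell with edgeR, 3 had an unadjusted p below 0.05, and 1 passed with DESeq2. Their median log2 fold change was -0.16. The proliferation marker Mki67 was at 3 to 6.55 CPM with vehicle (median 5.4) and 1.98 to 4.9 CPM with E4 (median 3.45), and its log2 fold change of -0.54 did not pass the test (adjusted p = 0.387). Of 80 ribosomal protein genes, 0 rose and 8 fell (10%), with a median of -0.22, and of 77 nuclear-encoded genes of oxidative phosphorylation, 1 rose and 14 fell (19.5%), with a median of -0.24. Without vehicle-treated mouse C3, 3 fell in each of these lists and 0 rose, and without C5 7 oxidative phosphorylation genes fell and 2 rose. Of 20 Hox genes tested, 0 passed in either direction with edgeR or DESeq2, and 4 had an unadjusted p below 0.05. Clock genes gave 0 higher and 3 lower of 19 (15.8%), and without vehicle-treated mouse C5 2 higher and 2 lower. Among the 3 was Clock itself, from a median of 90 CPM (87.8 to 97.3) to 61.6 CPM (57.4 to 74.5), a log2 fold change of -0.52 (SE 0.08, adjusted p = 0.00137). Immediate early genes, which respond within minutes to handling or stimulation, gave 2 higher and 5 lower of 25 (28.0%), and 3 lower without vehicle-treated mouse C5. Fos was at 65.7 to 141 CPM with vehicle (median 77.4) and 23.5 to 72.2 CPM with E4 (median 36.3), a log2 fold change of -1.08 (SE 0.31, adjusted p = 0.0216), which did not pass without E4-treated mouse C19 (-0.99) or without C20 (-0.96).

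Counts of further lists were as follows. Of 32 clustered histone genes, 6 rose and 0 fell (18.8%), and 1 rose without vehicle-treated mouse C3. Of 27 genes of matrix-cleaving enzymes and their inhibitors (MMP, ADAMTS and TIMP), 2 rose and 5 fell (25.9%), or 0 and 5 without C3, and Adamts12, a secreted protease, had a log2 fold change of -0.69 (SE 0.14, adjusted p = 0.00418). Of 16 keratin genes, 1 rose and 2 fell (18.8%). Krt7, a keratin of simple epithelia, fell with a log2 fold change of -1.55 (SE 0.33, adjusted p = 0.00564), and Krt83, a hair keratin, rose from 0 reads in every vehicle-treated mouse to 0 to 5 reads in E4-treated mice. These few reads lie below edgeR's expression filter, so Krt83 was tested only because of its reads in E2-treated mice. Of 16 leukocyte adhesion genes, 0 rose and 2 fell (12.5%). Of 19 nitric oxide and cGMP genes, 1 rose and 2 fell (15.8%), or 0 and 2 without C5 and 1 and 1 without C3. Of 9 platelet genes, 0 rose and 3 fell (33.3%), or 1 and 2 without C5.

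The 2 runs of animal numbers were also fitted apart. By itself the first run, with 4 vehicle and 3 E4 animals, gave 229 regulated genes, 75 higher and 154 lower. The second, with 2 and 3 animals, gave 86, of which 50 were higher and 36 lower. Leaving out each of the 12 animals in turn kept 99 of the 218 and 185 of the 401 in every one of the 12 fits. A set of 28 genes was called in each of those fits, with DESeq2, with the run of animal numbers and with the B cell and sympathetic neuron covariates. The B cell covariate alone sets its size, since that fit left the same 25 higher and 3 lower. In the B cell list itself 13 of 14 genes fell with E4. The set of 28 held 25 genes with higher expression, 14 of them Mup genes and 1 their pseudogene. The others were Prtn3, Bmp8a, Bmp8b, Oxct2b, Gm12248, Stc1, Zbtb16, Spon1, Arhgap40 and Zmiz1os1. The 3 with lower expression were Prnd, 2010003K11Rik and Mfng. Arhgap40 and Spon1 are named here because they belong to this set, after their values were seen. With each run fitted alone in place of the B cell and sympathetic neuron covariates, 34 higher and 9 lower genes were called in every fit.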

How the data were processed

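Libraries were made with a stranded mRNA kit and sequenced as paired 150-bp reads. Per the labels and the study's methods, the authors trimmed reads with Trim Galore, aligned them with Bowtie2 to GRCm38 (mm10) and counted them with featureCounts. The strand setting is not given in the sources used here. The deposited tables hold estimated counts per Ensembl gene, with decimals in 18.8% of the values above 0 of the tested genes, which is 49.1% in genes whose exons overlap another gene and 2.14% in the rest. The values were rounded to whole numbers. Of 55421 genes, 55240 matched GENCODE M21, and 24646 passed edgeR's expression filter. The vehicle, E4 and E2 samples (18) were fitted with edgeR 4.0.16 in R 4.3.3, using TMM factors and quasi-likelihood tests with Benjamini-Hochberg adjustment. Standard errors were derived from the test statistic. DESeq2 1.42.0, other scalings, filters and covariates, and leaving out each animal served as alternatives. The model was checked on simulated counts.

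Groups came from the sample titles. The labels do not say more about how animals were separated than their numbers, so p-values measure the spread between these samples. Genes were named if they were estrogen receptors or known targets (7 genes), if they were called with groups that did not overlap and had the highest or lowest fold changes above 1 or 10 CPM, among long noncoding RNAs or also against E2, if they had the smallest p, if they led a gene list, or if they were called in every fit without 1 animal, with DESeq2, with the run of animal numbers as a covariate and with the B cell and sympathetic neuron covariates. Neighbours and tissue markers were added after their values were seen. The comparison and its 58 gene lists were chosen with earlier results of these data known. Promoters came from RefSeq's GRCm38.p6 table.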

Additional observations from a re-analysis of the deposited data

Results flagged for a closer look

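In a group of 6 animals, a value was taken as standing apart when its gap to the nearest other animal took up more of the group's whole range than Dixon's 95% critical value allows. This held for 12 of 126 groups examined, where chance gives about 1 in 20, or 6.3. For the genes with a changed level, Prnd was at 0.162 CPM in E4-treated mouse C38, below the 0.243 to 0.277 CPM of the other E4-treated mice. AC134468.1, a transcript that fell, was at 0.146 CPM in E4-treated mouse C39 (others 0.553 to 0.769 CPM), and Gm43197 was at 0.828 CPM in E4-treated mouse C19 (others 0.438 to 0.567 CPM). Gm26810, a noncoding transcript, was at 5.18 CPM in E4-treated mouse C38 (others 3.07 to 3.79 CPM). Gm12248 was at 2.02 CPM in E4-treated mouse C39 (others 0.913 to 1.22 CPM). Oxct2b was at 0.0185 CPM, which is 1 read, in vehicle-treated mouse C24 and at 0 in the other vehicle-treated mice.

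Among the cell type lists, the summed endothelial level was 1450 CPM in E4-treated mouse C39 (others 995 to 1150 CPM), and the summed Schwann and satellite glia level in the same mouse was 6470 CPM (others 3540 to 4630 CPM). The summed macrophage level was 1500 CPM in vehicle-treated mouse C5 (others 831 to 976 CPM). The summed skeletal muscle level was 196 CPM in vehicle-treated mouse C2 (others 58.5 to 91.1 CPM) and 178 CPM in E4-treated mouse C20 (others 70.6 to 110 CPM). The total count of E4-treated mouse C38 was 24647246, below the 37505055 to 44224858 of the other E4-treated mice.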

How the results depend on the processing

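The 619 called genes (218 higher, 401 lower) and the 5341 past the test alone stayed within 1.5 times under DESeq2, other scalings, no expression filter, 24 samples, only vehicle and E4 samples, the run of animal numbers as a covariate and thinning to the smallest total. With the B cell list mean as a covariate 28 genes were called (25 higher, 3 lower) and 33 passed the test, with the T cell list mean 249 (102 and 147) and 1259, and with the sympathetic neuron list mean 392 (230 lower) and 3391. The first run of animal numbers alone gave 229 (75 and 154) and 651, and the second 86 (50 and 36) and 140. A mean of at least 1 CPM gave 330 (139 and 191), an adjusted p under 0.01 gave 283 (97 and 186), and no fold threshold gave 5341 (2379 and 2962). Leaving out 1 animal gave 391 (without vehicle-treated mouse C3) to 777 called genes, 140 to 290 higher, 251 to 487 lower, and 3053 to 6001 past the test. Without E4-treated mouse C20, 145 were higher and 3150 passed. The share of higher calls was 35.2%, 25.9% with upper-quartile factors, 89.3% with the B cell covariate and 58.1% in the second run. With upper-quartile factors the median log2 fold change of all genes was -0.08. Under the B cell covariate the log2 fold changes of Pax5 (0.028), Ccr7 (0.26), Cd2 (0.14), H2-DMb2 (0.13) and Ighd (0.14) changed sign. Of 214 named genes 195 passed the test, 133 of them in all 12 fits without 1 animal. These shifts have no tested cause. No paired analysis was possible because the groups share no animal numbers. Genes under 1 CPM rest on few reads, most so in E4-treated mouse C38.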
